A study of Mus musculus with 4 samples.

Results

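The 7 genes described here encode the enzymes and the recruiting factor that write and erase DNA methylation: Dnmt1, Uhrf1, Dnmt3a, Dnmt3b, Tet1, Tet2 and Tet3. They were chosen by symbol, and all 7 were found among the 32285 genes of the deposited matrix. Methylation of cytosine in CpG pairs is copied onto each newly made DNA strand by DNMT1, which UHRF1 brings to sites methylated on only the old strand. DNMT3A and DNMT3B place methyl groups on unmethylated sites, and the TET enzymes oxidise methylated cytosine, which opens the way to its removal. DNMT3A and TET2 are among the genes most often mutated in clonal hematopoiesis, the outgrowth of blood cells from one mutated stem cell.

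The study measured single-cell RNA in 4 mouse bone marrow samples, 2 from donors heterozygous for a Srcap mutation and 2 from wild-type donors, all C57BL/6. SRCAP is a chromatin remodelling enzyme. Donor CD45.2 hematopoietic stem and progenitor cells were sorted from bone marrow 20 weeks after competitive transplantation, so all cells of both genotypes had been transplanted, and each sample went into its own droplet library. The 4 libraries stand in 1 matrix as numbered barcode endings, and nothing read here ties an ending to a genotype. The libraries are therefore called library 1 to library 4, each value is given on its own, and no mutant was compared with a wild type. The nature of the Srcap mutation, the number of mice per sample and the recipients' details were not given in the sources used here.

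The libraries held 13301, 10879, 10460 and 9511 barcodes, and 41122 barcodes passed the filters on gene number and mitochondrial share. The median depth of those cells was 9824 to 10226 UMIs (unique molecular identifiers, 1 per captured RNA molecule). The members gave 229282 UMIs in them. Cells were assigned to types by marker genes, and 38465 cells had a type. A Procr-positive stem cell had at least 1 UMI of Procr, the gene of the surface protein EPCR, and at least 2 of 5 other stem cell genes; 8127 cells met this. Genes not used in the gate stood high there: Meis1, Cdkn1c, Hoxb5, Vwf, Mycn and Sult1a1 ranked 1st or 2nd of the 14 types that had at least 20 cells in every library. Marker genes held out of the gates gave mixed results elsewhere. Cd48 and Satb1 ranked only 9th and 8th in the Flt3 multipotent progenitor gate, Il2ra was at a median of 0 in the common lymphoid progenitor gate, and Fcgr1 was at 0 UMIs in the monocyte progenitor gate, so those names stand for their gate genes. Among the kept cells, 178 barcode sequences occurred in more than 1 library.

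The loci, in GRCm38 coordinates, lie on different chromosomes. The maintenance pair was Dnmt1 at chr9:20907209-20959888 on the reverse strand and Uhrf1 at chr17:56303321-56323486 on the forward strand. The de novo writers were Dnmt3a at chr12:3806007-3914443 and Dnmt3b at chr2:153649450-153687730, both on the forward strand. The erasers were Tet1 at chr10:62804570-62908996, Tet2 at chr3:133463679-133545139 and Tet3 at chr6:83362373-83459084, all on the reverse strand. Counts came from the 3′ end of transcripts and do not separate isoforms. Opposite-strand genes overlap 4 members (Dnmt3aos, Dnmt3bos, Gm42567 with Tet2 and B230319C09Rik with Tet3). These gave 35 to 186 UMIs, against 10406 to 23777 UMIs for the 4 members they overlap.

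Resting and cycling cells were told apart with 30 S phase and 31 G2/M genes, none of them a member. A resting cell had at most 8 S-list and at most 2 G2/M-list UMIs per 10000. A G2/M cell had at least 10 G2/M-list UMIs per 10000, and an S cell had at least 20 S-list UMIs with fewer than 10 from the G2/M list. Of the stem cells, 3151 were resting, 751 in S, 1452 in G2/M and 2773 between these limits. Cycling means S and G2/M together, and the cycling share of stem cells was 29.9%, 36.0%, 23.7% and 19.7% in libraries 1 to 4. Levels are UMIs of a gene per 1000000 UMIs of the summed cells (CPM), and differences are log2 ratios of CPM + 1 within a library. A gene was called higher or lower when it passed 1.5-fold in the same direction in each of the 4 libraries, a rule on the size of a difference that gives no test. Libraries of unknown genotype are not replicates, so no p-value, mean or SD is given.

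Both genes of the maintenance pair, and no other member, were called between resting and cycling stem cells. Dnmt1 stood at 57.05, 60.02, 53.0 and 51.51 CPM in the resting stem cells of libraries 1 to 4 and at 264.3, 299.9, 234.7 and 249.3 CPM in the cycling ones. Every cycling value lay above every resting value, and the spread among libraries was small beside the gap. The median log2 ratio was 2.22, with a range of 2.13 to 2.30. Uhrf1 stood at 5.06, 2.46, 3.41 and 4.17 CPM in resting cells and at 94.75, 109, 93.47 and 97.59 CPM in cycling cells, again without overlap. Its median log2 ratio was 4.34, with a range of 3.98 to 4.99. The resting value of library 2 rested on 9 UMIs, and those of the other libraries on 22 to 40, so the size of this ratio is less certain than its direction. Over all 10039 genes tested, 8.52% were called higher and 5.8% lower in cycling cells, and the median log2 ratio was 0.00. Uhrf1 ranked 62nd and Dnmt1 254th from the top of those genes.

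The de novo writers were not called. Dnmt3a gave 47.34, 60.57, 42.0 and 42.75 CPM in resting and 43.92, 49.56, 39.75 and 44.33 CPM in cycling stem cells, and the groups overlapped. Its log2 ratio ranged from -0.28 to 0.05. Dnmt3b gave 33.99, 39.29, 30.22 and 32.84 CPM in resting and 41.11, 56.54, 42.91 and 45.39 CPM in cycling stem cells. Its cycling values were all above its resting values, but the log2 ratios of 0.27 to 0.51 stayed under the 1.5-fold limit of 0.58.

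The erasers were not called either. Tet1 gave 43.7, 68.75, 39.52 and 34.62 CPM at rest and 43.22, 57.48, 38.92 and 35.1 CPM in cycling cells, so the values nearly coincided within libraries 1, 3 and 4. Tet2 gave 23.47, 30.56, 17.36 and 18.04 CPM at rest and 18.39, 26.76, 17.8 and 20.73 CPM in cycling cells, with log2 ratios from -0.34 to 0.19. Tet3 gave 37.83, 51.84, 31.15 and 33.68 CPM at rest and 45.21, 66.54, 48.06 and 42.82 CPM in cycling cells. The Tet3 ratio was positive in each of the 4 libraries, at 0.25 to 0.61, and passed 1.5-fold only in library 3. As a list, the 7 members had a median log2 ratio of 0.35.

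**Figure D1:**
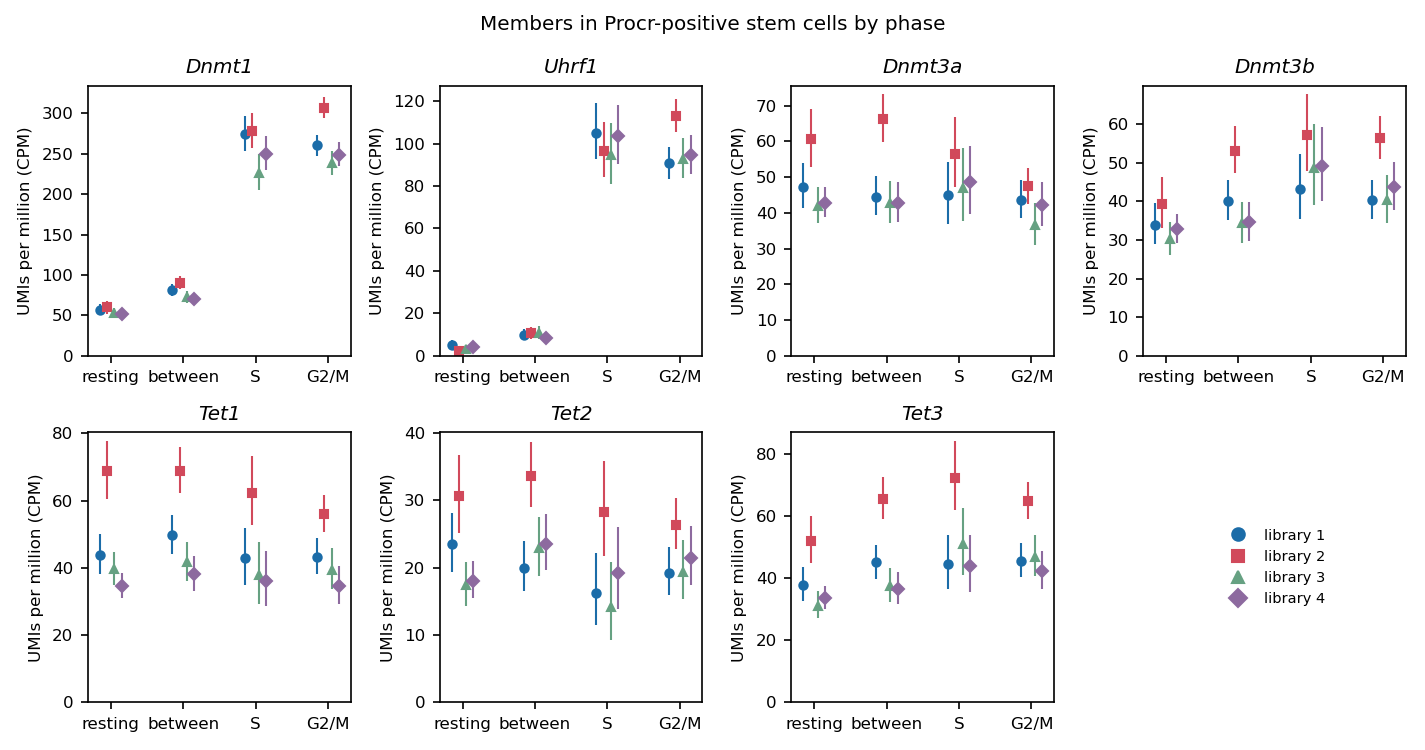
CPM of each member in Procr-positive stem cells that were resting, between the limits, in S or in G2/M (x axis), 1 point per library, with exact 95% Poisson intervals that cover counting error only; each panel has its own y axis from 0. Dnmt1 and Uhrf1 step up in S and G2/M in all 4 libraries, from 51.51 to 60.02 up to 234.7 to 299.9 CPM for Dnmt1 in all cycling cells, while none of the other 5 members passes 1.5-fold over rest in every library.

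The step of the maintenance pair was already present in S cells. Dnmt1 gave 274.4, 277.6, 226.6 and 250.2 CPM in S and 260.4, 307.1, 238.2 and 248.9 CPM in G2/M. Uhrf1 gave 105.2, 96.52, 94.68 and 103.6 CPM in S and 90.66, 113, 92.94 and 94.65 CPM in G2/M. For both genes the S and G2/M ranges overlapped. The same 2 members were called higher in S against resting cells, where 5.81% of genes were called higher and 4.19% lower. They were also the 2 called in G2/M against resting cells, where these shares were 9.08% and 6.55%. No member was called between G2/M and S, where 3.18% of genes were called higher and 0.52% lower. With both cycling thresholds doubled, however, Uhrf1 was called lower in G2/M than in S, at a log2 ratio of -1.29. That setting changes which cells count as S and G2/M, and its share of all genes is not given here. It is therefore not read as a fall after S in the cells described here.

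Cells between the limits carried somewhat more of the pair than resting cells. Dnmt1 stood at 81.05, 90.63, 72.47 and 69.92 CPM there, above all resting values. Its log2 ratios were 0.50, 0.59, 0.44 and 0.43, past 1.5-fold only in library 2, so it was not called. With both cycling thresholds doubled Dnmt1 was called, at a median of 1.13. That setting moves cells otherwise counted as S or G2/M into the group between the limits, so it says nothing more about the cells described here. Uhrf1 stood at 9.67, 10.66, 10.62 and 8.51 CPM and was called higher than in resting cells, at a median of 1.14 on the log2 scale. In that comparison 0.401% of genes were called higher and 0.241% lower. The Uhrf1 call rested on 47 to 62 UMIs per library and was lost under 7 of the alternative settings.

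A cell-by-cell count at equal depth gave the same order. With each cell thinned to 5000 UMIs, a Uhrf1 UMI was found in 2.27%, 1.68%, 1.42% and 2.46% of resting stem cells and in 40.9%, 33.8%, 34.4% and 34.6% of S cells. Unthinned, the shares were 1.60% to 3.61% at rest, where median depth was 6715 to 7812 UMIs, and 58.1% to 63.6% in S, at 10701 to 11404 UMIs. Resting plasma cells, antibody-secreting cells that have left the cycle, gave a Uhrf1 UMI in 0 of 59, 1 of 50, 1 of 75 and 1 of 128 thinned cells, at an unthinned median depth of 15098 to 17193 UMIs. The exact 95% binomial intervals of the resting stem cells, which lay within 0.713% to 3.72%, overlapped those of the plasma cells in every library. The upper ends of the plasma cell intervals lay at 4.28% to 10.6%, so this overlap could not separate the types. Summed without thinning, resting Uhrf1 levels did not overlap, at 2.46 to 5.06 CPM in stem cells and 1.13 to 1.79 CPM in plasma cells. Most genes stood lower in plasma cells, 68.2% by the call, and plasma cells were not shown to give a background level. The low share in resting stem cells is therefore read neither as expression nor as its absence. For Dnmt1 the thinned share was 23.3%, 24.8%, 20.6% and 21.7% at rest, 65.6% to 76.3% in S and 3.12% to 10.0% in resting plasma cells.

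Cycling cells also held more RNA, which matters for the members that were not called. Median depth was 13980 to 15801 UMIs in G2/M stem cells, against 6715 to 7812 at rest. Counted as UMIs per cell, Dnmt3a went from 0.338, 0.444, 0.34 and 0.353 at rest to 0.596, 0.682, 0.561 and 0.651 in cycling cells. On that scale 6 members passed 1.5-fold in each library, with median log2 ratios of 0.76 for Dnmt3a, 1.28 for Dnmt3b, 0.80 for Tet1, 1.21 for Tet3, 3.10 for Dnmt1 and 5.15 for Uhrf1. So did 57.9% of all genes tested, and the median log2 ratio over those genes was 0.84 on that scale, above the values of Dnmt3a and Tet1. Tet2 passed it only with G2/M cells alone, at 0.91, where 66.3% of genes did. Relative to all RNA, only Dnmt1 and Uhrf1 passed 1.5-fold in each library.

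Other genes of DNA methylation were split in the same contrast. Of 38 listed genes, 34 reached 5 CPM; 7 were called higher and 4 lower, and their median log2 ratio was 0.16. The largest difference was that of Hells, a remodelling enzyme needed for methylation of repeats, which rose from 8.68 to 11.2 CPM at rest to 119 to 140 CPM in cycling cells. Its partner Cdca7 rose from 57.35 to 64.39 CPM to 167.1 to 179.5 CPM. Of the genes of one-carbon and methyl donor metabolism, Shmt1 rose by a log2 ratio of 1.58 and Ahcy, which clears the product of methyl transfer, by 1.33. Ahcy was low at rest, at 3.00 to 4.48 CPM, and its ratio ranged from 0.90 to 1.91, so its size is uncertain. Mbd4, a glycosylase that repairs deaminated methylcytosine, rose by 0.93. Idh3a and Idh2, which make alpha-ketoglutarate in mitochondria, rose by 0.79 and 0.75.

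Gadd45g, a stress gene tied to demethylation, fell by 1.66 on the log2 scale. Zbtb4, a reader of methylated DNA, fell by 0.92. Idh1, the cytosolic source of alpha-ketoglutarate, fell by 0.81. Ogt, which binds TET proteins and glycosylates many others, fell by 0.66. Uhrf2, the paralog of Uhrf1, gave a log2 ratio of only 0.39, and Tdg, the glycosylase acting after TET, gave 0.69 without passing the limit in each library. For comparison, 18 of 18 listed replication fork genes were called higher, with a median log2 ratio of 2.31, and they included Lig1 at 3.42 and Chaf1a at 3.19. The median Dnmt1 ratio lay near that median, and the median Uhrf1 ratio lay above the highest of the list, Asf1b at 4.11. The order was the other way in library 1, where Uhrf1 gave 3.98 and Asf1b 4.35. Resting levels were low for both, at 2.46 to 5.06 CPM for Uhrf1 and 1.01 to 3.27 CPM for Asf1b.

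**Figure D2:**
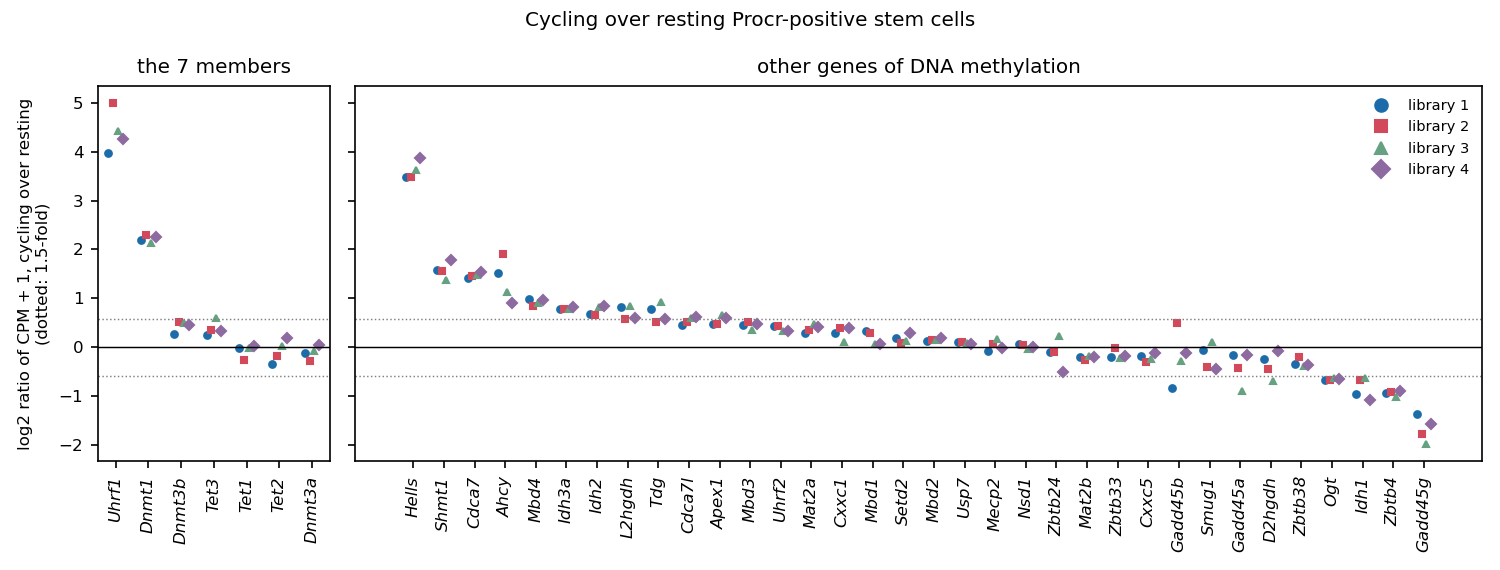
Log2 ratio of CPM + 1 in cycling over resting Procr-positive stem cells (y axis), 1 point per library, for the 7 members and for the 34 other listed genes of DNA methylation that reached 5 CPM; dotted lines mark 1.5-fold. Uhrf1, Hells and Dnmt1 stand apart at the top, at medians of 4.34, 3.56 and 2.22, and Gadd45g lies lowest at -1.66.

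The promoters of the maintenance pair were searched because these genes moved with the cycle. E2F factors switch on many genes at the start of S phase, and the sequences TTTCCCGC, TTTCGCGC, TTTGCCGC and TTTGGCGC are forms of the E2F site. They were looked for on both strands in RefSeq windows (GRCm38.p6) from 250 bases before to 50 after each annotated start, 12 windows for the 7 members. Matches lay in 1 of 3 windows of Dnmt1 and in 1 of 2 windows of Uhrf1. These belonged to the annotated start farthest inside each gene, chr9:20952623 for Dnmt1 and chr17:56304313 for Uhrf1. The windows of their outer starts held none, and which start these cells use was not measured. The windows of Dnmt3a, Dnmt3b, Tet1, Tet2 and Tet3 held none. Of all 32851 windows of this length, 2.26% held a match, and among 15 listed fork genes with a window, 5 did (Lig1, Pold1, Pole2, Rfc3 and Topbp1). The first Dnmt1 match began 219 bases before the start and read on the opposite strand (chr9:20952824-20952853, reverse strand). The second began 33 bases after it (chr9:20952574-20952603, reverse strand). The Uhrf1 match began 185 bases before the start (chr17:56304117-56304146, forward strand). The capitals mark the matched letters in 30 bases, shown 5′ to 3′ on the strand of the gene, so that the pair can be compared:
Dnmt1 first match: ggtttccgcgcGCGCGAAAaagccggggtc
Dnmt1 second match: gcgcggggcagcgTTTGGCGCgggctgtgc
Uhrf1 match: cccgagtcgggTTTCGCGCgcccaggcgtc
The upstream Dnmt1 match is the reverse complement of the same TTTCGCGC form that Uhrf1 holds. These are matches of letters; binding was not measured.

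The same pair was called higher in cycling cells of each of 6 other types with enough resting cells, and no other member was. The types were the Flt3 multipotent progenitor, the Dntt lymphoid-primed progenitor, the other progenitor (no gate met), the megakaryocyte progenitor, the neutrophil precursor and the B lineage. The share of all genes called higher was 6.76%, 7.69%, 8.18%, 6.42%, 8.45% and 9.69% in that order, and the share called lower was 3.41%, 3.87%, 6.03%, 3.76%, 7.95% and 9.24%. The median Dnmt1 log2 ratio lay between 1.96 in megakaryocyte progenitors and 3.07 in the B lineage. The median Uhrf1 ratio lay between 2.94 in the B lineage and 4.41 in Dntt lymphoid-primed progenitors. The resting Uhrf1 values were 0, 3, 3 and 3 UMIs in megakaryocyte progenitors, 3, 5, 4 and 2 in the B lineage and 10, 4, 2 and 5 in Dntt progenitors, so its ratio in these types has no firm size.

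The other members gave smaller values with some order in sign. Tet1 was below 0 in each library in Flt3 progenitors, Dntt progenitors, other progenitors and neutrophil precursors, at medians of -0.27, -0.42, -0.33 and -0.57. Tet2 was below 0 in each library in the first 3 of these, at -0.41, -0.49 and -0.32. In stem cells the corresponding medians were -0.02 and -0.08. Dnmt3a was below 0 in each library in Flt3 progenitors, Dntt progenitors and neutrophil precursors, at -0.22, -0.42 and -0.46. On the other side of 0, Dnmt3b in other progenitors gave 0.12 to 0.27, and Tet3 gave 0.06 to 0.29 there and 0.09 to 0.19 in neutrophil precursors. None of these values passed the call, and no difference between types was tested. In the B lineage, Tet1 was called lower without library 1 (-1.43) and Tet2 was called lower without library 4 (-1.89), on 1 to 8 resting UMIs per library.

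**Figure D3:**
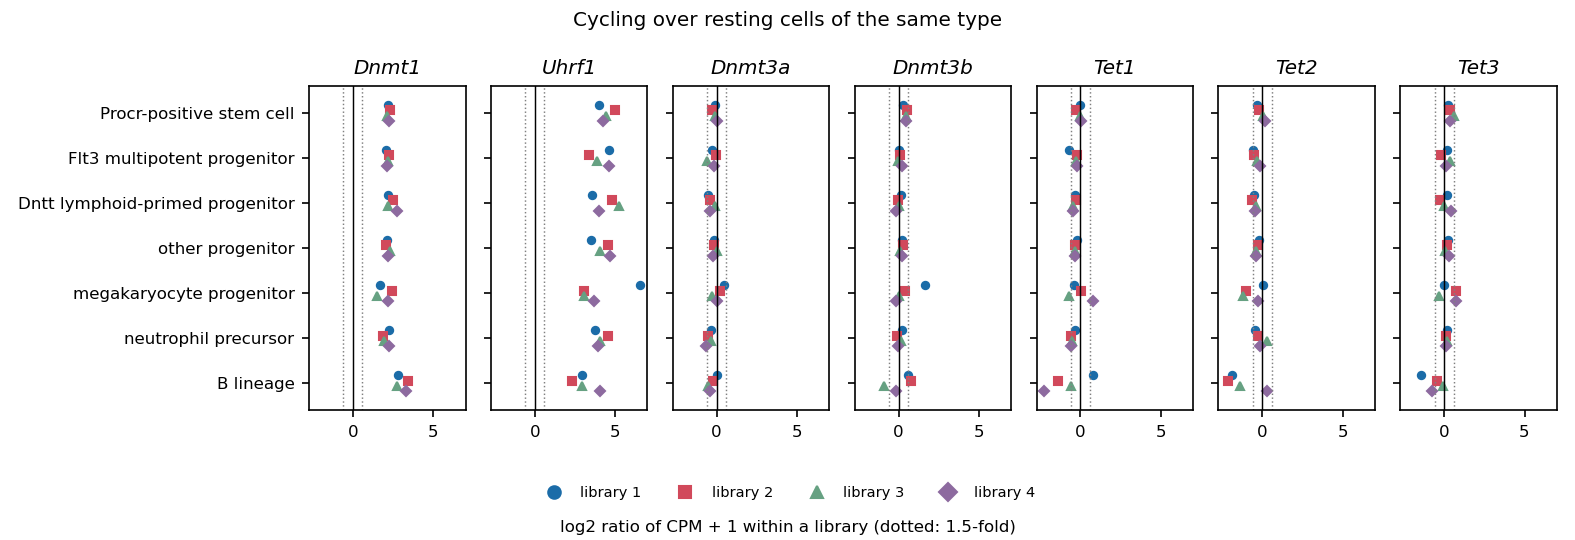
Log2 ratio of CPM + 1 in cycling over resting cells of the same type and library (x axis, shared by the panels) for 7 gated types, 1 point per library; dotted lines mark 1.5-fold. Dnmt1 and Uhrf1 lie right of the upper line in all 28 type and library pairs, and no other member passes a line in every library of a type.

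Across the 14 types, with cells of all phases together, levels differed most for Uhrf1 and least for Tet3. Uhrf1 was highest in the B lineage, at 202.6, 250.1, 193.3 and 224.8 CPM, and these values did not overlap those of any other type. It was lowest in conventional dendritic cells, at 7.07, 26.9, 12.64 and 8.18 CPM, a median log2 distance of 4.23 from the B lineage. Procr-positive stem cells ranked 12th of 14 for Uhrf1, at 45.8, 58.58, 36.63 and 33.7 CPM, and 12th for Dnmt1, at 155.3, 190.1, 121.4 and 116.4 CPM. Dnmt1 was again highest in the B lineage, at 250 to 328.8 CPM, with megakaryocyte progenitors next at 252.1 to 315.8 CPM and overlapping. Of the 13 pairs of neighbours in the order, 12 overlapped for each of the 2 genes. Beside these orders, the share of cycling cells was 76.3% to 82.6% in the B lineage, 73.3% to 80.3% in megakaryocyte progenitors and 5.88% to 15.4% in conventional dendritic cells. Its part in them was not tested by itself, and values within resting and within cycling cells follow.

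For the other 5 members each of the 13 pairs of neighbours overlapped. Dnmt3a was highest in macrophages and megakaryocyte progenitors, at medians of 52.33 and 49.98 CPM, with stem cells 3rd at 44.1 CPM and no type's range above theirs. It was lowest in erythroid progenitors and plasma cells, at 19.56 and 16.87 CPM. Dnmt3b was highest in common lymphoid progenitors, at 36.66 to 54.64 CPM, and lowest in conventional dendritic cells, at 4.21 to 13.63 CPM. Tet1 had its highest medians in Dntt lymphoid-primed progenitors and stem cells, at 44.09 and 42.62 CPM, and its lowest in conventional dendritic cells, at 8.70 CPM. Tet2 had its highest medians in monocyte progenitors and conventional dendritic cells, at 40.68 and 39.17 CPM, and its lowest in the B lineage, at 9.62 CPM. The medians of Tet3 lay between 38.49 and 59.97 CPM everywhere except in plasma cells, at 18.4 CPM. Several of these places rested on few UMIs in libraries 1 to 4. In conventional dendritic cells Dnmt3b gave 5, 3, 2 and 5 UMIs and Tet1 gave 8, 6, 4 and 2. Dnmt3a gave 27, 22, 28 and 26 UMIs in macrophages, and Tet2 gave 21, 29, 19 and 14 in monocyte progenitors. Those places in the order are therefore not firm.

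**Figure D4:**
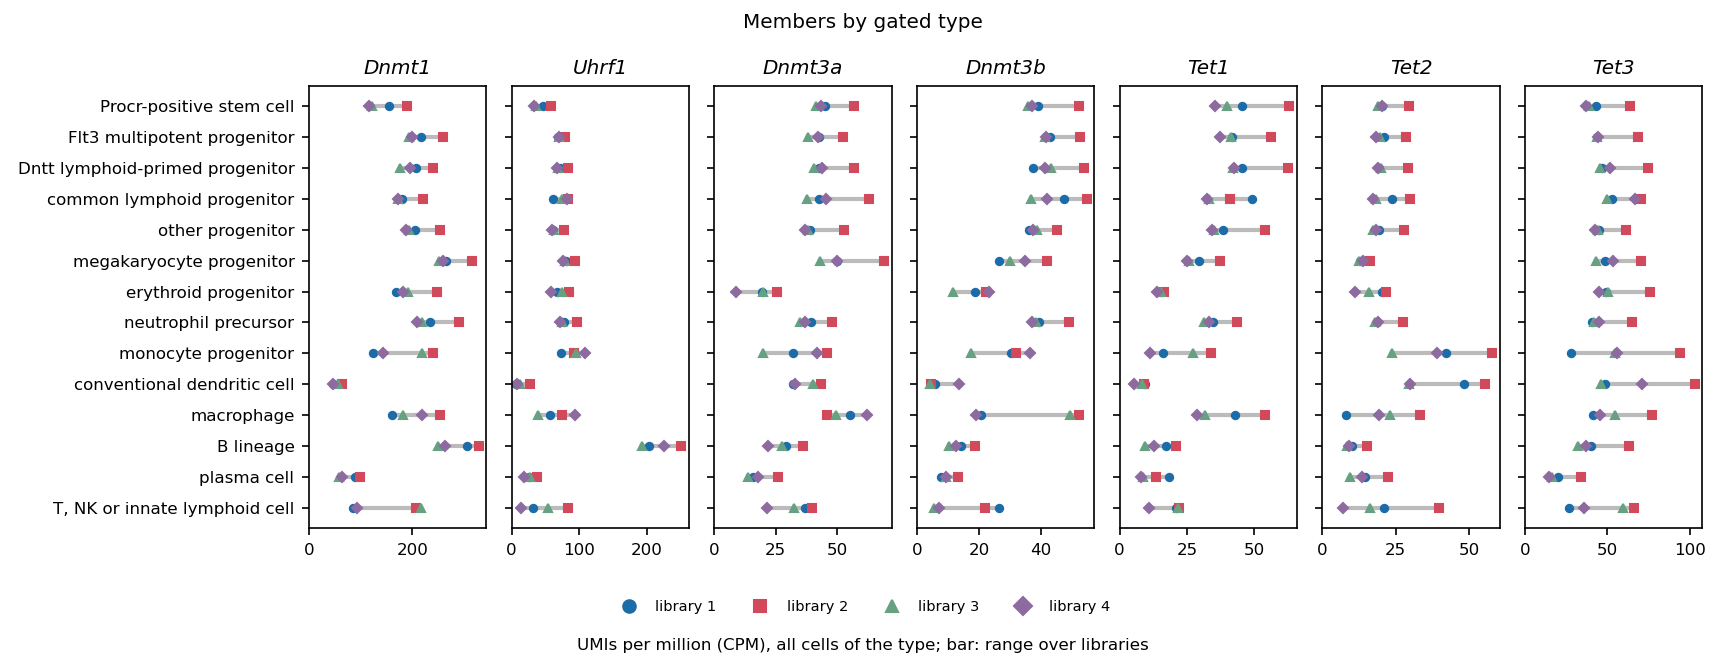
CPM of each member in the 14 gated types, cells of all phases together (x axis, 1 scale per panel from 0), 1 point per library with a bar over their range. Uhrf1 of the B lineage, at 193.3 to 250.1 CPM, stands clear of all other types, while the ranges of neighbouring types overlap throughout for Dnmt3a, Dnmt3b and the 3 Tet genes.

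Among resting cells only, differences between the early types and stem cells were small or uneven over libraries. In Flt3 progenitors, Dntt progenitors, other progenitors, megakaryocyte progenitors and neutrophil precursors no member was called against resting stem cells. In the same order, 0.999%, 3.81%, 0.141%, 0.776% and 0.413% of genes were called higher and 2.45%, 6.2%, 0.241%, 1.57% and 0.191% lower. For Dnmt3a the median log2 ratio lay between -0.16 and 0.22 over these 5 types, and for Tet2 between -0.05 and 0.38. Dnmt1 stood at 63.63 to 95.26 CPM in resting megakaryocyte progenitors and at 60.22 to 70.13 CPM in resting Flt3 progenitors, above the 51.51 to 60.02 CPM of resting stem cells. With the cells between the limits counted as resting, Dnmt1 was called higher in megakaryocyte progenitors, at 0.83. Uhrf1 was then called higher in Dntt progenitors, at 0.79, and in neutrophil precursors, at 0.80. Among stem cells, cells between the limits carried more of the pair, and that setting adds them unevenly. In library 1, 781 stem cells lay between the limits beside 693 resting ones. The counts there were 98 and 31 for megakaryocyte progenitors, 425 and 198 for Dntt progenitors and 408 and 228 for neutrophil precursors. These calls are therefore not read as differences among resting cells, and the part of the mixing was not tested. All comparisons here share the same resting stem cells.

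Resting conventional dendritic cells, antigen-presenting cells numbering 25 to 55 per library, had higher Tet2 and lower Dnmt3b and Tet1. Tet2 stood at 55.78, 49.74, 35.51 and 40.2 CPM there and at 23.47, 30.56, 17.36 and 18.04 CPM in resting stem cells, without overlap. It was called higher, at a median log2 ratio of 1.05, where 9.53% of genes were called higher. Dnmt3b gave 2, 0, 1 and 0 UMIs and Tet1 gave 0, 4, 0 and 2 UMIs in these cells, and both were called lower, where 24.5% of genes were lower. Dnmt1 was called lower too under 4 alternative settings, at -1.62 without library 3 and at -1.48 to -1.32 without the highest 8% of doublet scores or with 4 of 6 markers per gate, and also with cells weighted equally. The median over all genes was -0.52, so a typical gene also stood lower in CPM there. With that median set to 0, the Tet2 ratio was 1.55, Dnmt3b and Tet1 stayed called, and Tet3 was also called higher at 0.97. The Tet2 value rested on 9 to 27 UMIs per library, and its call was lost without those doublet scores and after thinning.

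In resting B lineage cells, 26 to 40 per library, Uhrf1 was called higher on 3, 5, 4 and 2 UMIs and Dnmt3b lower on 1, 1, 3 and 2 UMIs, where 6.13% and 8.27% of genes were called. The Dnmt3b call was lost under 6 alternative settings, and without library 3 Tet3 was called higher as well, at 0.82. Dnmt1 at 26.84 to 45.07 CPM and Dnmt3a at 26.84 to 41.03 CPM lay below all values of resting stem cells without being called. Dnmt1 was called lower with cells weighted equally, at -0.84. As UMIs per cell Dnmt1 and Dnmt3a were called lower, at -1.61 and -1.48. In resting plasma cells 6 members were called lower, all but Tet2, but so were 68.2% of all genes, and 4.06% were higher. In plasma cells of all phases the immunoglobulin gene Ighm alone took 63314 to 93400 CPM. The Uhrf1 call was lost under 11 of 19 alternative settings, and all 6 were lost with 2 of 6 markers per gate. The median of all genes was -1.40 there. With it set to 0, only Dnmt3b at -2.46 and Tet1 at -2.01 were still called lower, and Uhrf1 reversed from -0.81 to 0.62 on 1 to 4 UMIs per library. Tet2 was called lower too without library 2, at -1.12, and with Procr as the only gene of the stem cell gate, at -0.99. It was also called lower with cells weighted equally, at -0.81, and with cells between the limits counted as resting, at -0.72.

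Cycling cells, which hold more UMIs, were compared between types as well, a choice made after the resting values were seen. In cycling B lineage cells Uhrf1 stood at 213.7, 262.8, 208.7 and 238.8 CPM, against 94.75, 109, 93.47 and 97.59 CPM in cycling stem cells, without overlap. It was called higher, with log2 ratios of 1.15 to 1.28 and a median of 1.21, where 6.53% of genes were. Dnmt1 differed by only 0.21. Dnmt3b stood at 14.27, 18.46, 9.83 and 12.09 CPM against 41.11, 56.54, 42.91 and 45.39 CPM, Tet1 at 16.16, 18.46, 8.27 and 10.21 CPM against 43.22, 57.48, 38.92 and 35.1 CPM. Both were called lower, at -1.69 and -1.64, as was Tet2 at -1.09, where 19.1% of genes were lower and the median of all genes was -0.23. The values with that median set to 0 were -1.47, -1.41 and -0.85, and all 3 remained called. The Tet2 call was lost with 2 of 6 markers per gate, at -1.02, and after thinning to 5000 UMIs, at -0.80, where Dnmt3a was called lower at -0.74.

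Most cycling B lineage cells were in G2/M, 207 to 306 per library, against 9 to 16 in S. Leaving out the S cells could therefore change little. With only G2/M cells on both sides the Uhrf1 log2 ratio was 1.22, and the same count of members was called, 1 higher against 5.87% of genes and 3 lower against 19.1%. Some genes of replication stood higher beside it. In the cycling B lineage 5 of 18 fork genes were called higher, with a list median of 0.55. Of the S-list genes 7 of 30 were, at 0.40. With G2/M cells alone these were 6 of 18, at 0.57, and 9 of 30, at 0.47. Of the G2/M-list genes 15 of 31 were called higher, at 0.68, and 3 of 31 with G2/M cells alone, at 0.27. The S and G2/M lists also chose the cycling cells, so their counts are not independent of that choice. The part of these genes in the Uhrf1 difference was not tested.

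Cycling erythroid progenitors, 54 to 81 per library, were low in a different trio. Dnmt3a stood at 17.21, 24.47, 15.63 and 9.54 CPM against 43.92, 49.56, 39.75 and 44.33 CPM in cycling stem cells. Its median log2 ratio was -1.30. Dnmt3b was lower by a median of 1.20 on the log2 scale and Tet1 by 1.72, and 17.7% of genes were called lower, 6.59% higher. Counted as UMIs per cell, the 3 ratios were -0.69, -0.59 and -1.06 and none was called. In cycling megakaryocyte progenitors only Tet2 was called lower, at 11.91, 15.42, 11.47 and 13.27 CPM against 18.39, 26.76, 17.8 and 20.73 CPM, where 7.41% of genes were lower and 3.37% higher. That ratio of -0.60 lay at the limit, and 9 alternative settings lost the call. Tet1 and Dnmt3b gave -0.59 and -0.46 there without being called.

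No member was called in the cycling cells of the remaining 5 types against cycling stem cells. These were the Flt3, Dntt, common lymphoid and other progenitors and the neutrophil precursors, where 0.0515%, 1.17%, 3.96%, 0.391% and 0.965% of genes were called higher and 0.258%, 3.31%, 6.75%, 0.844% and 2.05% lower. With 4 of 6 markers per gate, Tet1 was called lower in neutrophil precursors, at -0.95. All 8 comparisons share the same cycling stem cells.

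**Figure D5:**
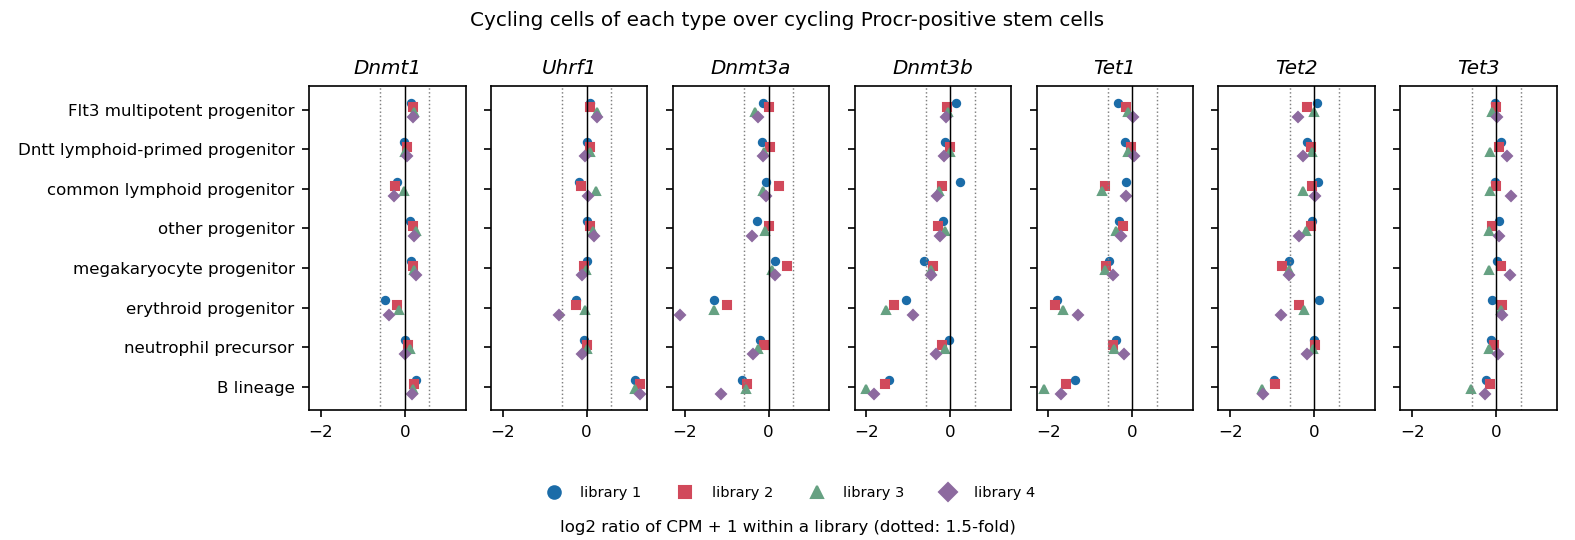
Log2 ratio of CPM + 1 in cycling cells of 8 gated types over cycling Procr-positive stem cells of the same library (x axis, shared by the panels), 1 point per library; dotted lines mark 1.5-fold. Uhrf1 is right of the upper line in the B lineage only, at 1.15 to 1.28, and Dnmt3b and Tet1 are left of the lower line in the B lineage and erythroid progenitors.

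Profiles over the 14 types grouped the members as a description, since the points share libraries and the share of cycling cells. Within a library, Dnmt1 and Uhrf1 had a median Pearson r of 0.89 (0.86 to 0.92 over libraries), and Dnmt3b and Tet1 had 0.82 (0.78 to 0.95). Tet2 had -0.33 with Dnmt1 (-0.58 to -0.14) and -0.49 with Uhrf1 (-0.54 to -0.01, so near 0 at one end). Among 7239 genes, the profiles most like Dnmt1 were those of Cbx5 and Dtymk at 0.96 and Lig1 at 0.95, and those most like Uhrf1 were Hist1h3c at 0.96, Hmgb1 at 0.95 and Hist1h2bj at 0.95. Ssbp2 was the nearest gene to both Dnmt3b, at 0.89, and Tet1, at 0.92. Rnf144a and Ttc3 followed for Dnmt3b, both at 0.89, and Sirt3 at 0.92 and Zfp36l2 at 0.91 for Tet1. Dnmt3a was nearest to Celf2, Bbx and Tax1bp1, at 0.85, 0.84 and 0.83. Tet2 was nearest to H2-DMa at 0.79, Zmiz2 at 0.79 and Rnd3 at 0.78, and Tet3 to Tbl1xr1, Mtpn and Prpf38b, at 0.88, 0.87 and 0.86.

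Library 2 had the highest levels of most members. In resting stem cells it was highest for 6 of 7 members, all but Uhrf1, and in cycling stem cells for 7 of 7. The share over all genes was counted in resting cells only. In those cells the lead was widest for Tet1, at 68.75 CPM in library 2 against 34.62 to 43.7 CPM in the others, a log2 distance of 0.78 from their median. The exact 95% Poisson interval of that value, 60.5 to 77.8 CPM, did not reach those of the other libraries. Library 2 was also the highest for 56% of all 9994 genes tested in resting stem cells. The share rose with the length of the gene, from 35.5% of genes under 10 kb to 73.8% at 50 to 100 kb and 74.1% at 100 kb or more. The members span 20.2 kb (Uhrf1) to 108.4 kb (Dnmt3a), and all but Uhrf1 and Dnmt3b span more than 50 kb. The 6 of 7 is therefore not read as particular to the members. Whether gene length has a part in the members' values was not tested, and the genotype of library 2 is not known here.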

How the data were processed

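The measurements were UMI counts per gene and cell, deposited by the authors as 1 unnormalized matrix of 4 libraries and aggregated by Cell Ranger (version 6.1.2, per the file headers) on mm10, per the submitters' processing notes. Each library was a 10x 3′ library, per the labels. Whether aggregation equalised the libraries' depth is not given in the sources used here. The members, gene lists, markers and thresholds were chosen with earlier results of these data known. Barcodes under 500 genes or over 10% mitochondrial UMIs were removed, 3029 in all. A cell took a lineage with 3 of 6 markers, and 2657 cells with more than 1 lineage were left out. Scrublet in scanpy 1.11.5 marked 1 of the kept cells at its automatic threshold, too few to rely on, so no cell was removed by it and doublets may remain.

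UMIs were summed per library, type and phase (Python 3.11.15, numpy 2.4.6, pandas 2.3.3, scipy 1.17.1, matplotlib 3.10.9). Genes at 5 CPM on average and sides with 20 cells in each library were used, which left out plasmacytoid dendritic cells and basophil or mast cell progenitors. Intervals are exact at 95% and cover counting error only. A count of 0 allows up to 3 UMIs. The genes named are the members, listed DNA methylation genes past 1.5-fold in stem cells, and the 3 genes with profiles most like each member, at 20 CPM or more; other listed genes and the overlapping genes were named after their values were seen. The ratio and the call were tested on simulated data. A planned edgeR test of mutant against wild type was not run, because libraries could not be tied to samples. Alternatives covered filters, gates, phase limits, scaling, thinning, pseudocounts and leaving out each library.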

Additional observations from a re-analysis of the deposited data

How the results depend on the processing

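Dnmt1 and Uhrf1 were called higher in cycling stem cells under all 19 alternatives, at 1.92 to 2.30 and 3.52 to 4.55 on the log2 scale apart from UMIs per cell. Over all comparisons, 250 of 270 counts of called members stayed within 1.5 times the reported count. As UMIs per cell, 6 members were called higher in cycling, 4 in S and 7 in G2/M stem cells (2 each by CPM). The shares of all genes were 57.9%, 28.6% and 66.3%. On that scale 24 rather than 12 member and type pairs were higher in cycling cells of other types. In cycling types against cycling stem cells, 3 rather than 7 were lower. The share of all genes on that scale is given for stem cells only, so these pair counts are not read as particular to the members. Doubled cycling thresholds gave 1 member lower in G2/M than in S, against 0. Of resting types against stem cells, 2 pairs were higher and 9 lower. The higher count was 1 at 1000 genes per cell and without the highest Scrublet scores, 0 with 2 markers per gate, with halved resting thresholds and after thinning to 5000 UMIs, and 5 with cells between the limits counted as resting. The lower count was 0 with 2 markers, 5 with halved thresholds and 4 with the median of all genes set to 0, where Uhrf1 in plasma cells reversed to 0.62. Halved thresholds left 6 pairs higher in cycling cells of other types, since fewer types had enough resting cells, and counting cells between the limits as resting gave 2 lower, against 0. Leaving out 1 library gave 0 to 1 there. Without a filter on low counts, 5.04% of genes were higher in cycling stem cells, against 8.52%. These counts cover fewer types where one had under 20 cells in a library. Counts of members under the alternatives stand mostly without the share of all genes, so they are not read as results about the members. Resting B lineage cells could not be used at 1000 genes, after thinning, with 2 markers or with halved resting thresholds, nor resting dendritic cells in the last 2 of these, nor resting megakaryocyte and neutrophil cells with 4 markers or halved thresholds, nor cycling common lymphoid progenitors with 2 markers. No paired analysis was possible because the barcode endings carry no replicate number and no genotype to pair; the ratios are already within a library. Small resting types, at 25 to 55 cells per library for dendritic cells, limit what depth can show.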
